A study of Mus musculus with 5 samples.

Results

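αT3–1, a gonadotrope line of intermediate stage by its label, was set against the other 3 pituitary lines of the study, αT1–1 (immature gonadotrope), LβT2 (mature gonadotrope) and TαT1 (thyrotrope), in RNA sequencing of 5 mouse cell lines. All 4 came from tumors of CB6F1/J mice carrying an SV40 T-antigen transgene, were untreated and were grown in the same serum-containing medium. The labels give the stage of αT3–1 and αT1–1 as embryonic and that of LβT2 and TαT1 as mature. The remaining line, NIH3T3, is an untreated embryonic fibroblast line from Swiss mice and was not used to choose genes. Each line is an immortal line of its own, so its differences from the others include whatever sets one tumor line apart from another. The deposited table has 1 column per line, in RPKM (reads per kilobase of gene, scaled to the reads of the library), so no spread between cultures could be measured. No test between lines was made, and genes were called by size alone. For each of the 12884 of 21437 genes at 1 RPKM or more in any of the 4 pituitary lines, αT3–1 was compared with the nearest of the other 3 on log2(RPKM + 1). A gene was called when αT3–1 lay above the highest, or below the lowest, of the other 3 by 2 or more, that is 4-fold after adding 1 RPKM, and this difference to the nearest line is called the gap. By this rule 221 genes were higher in αT3–1 than in all 3 other lines (1.72%) and 58 were lower than in all 3 (0.45%).

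Gonadotropes are the anterior pituitary cells that make the gonadotropins LH and FSH, each built of a common α subunit, encoded by Cga, and a β subunit of its own, encoded by Lhb or Fshb. Thyrotropes share the α subunit and pair it with the product of Tshb to make TSH. Hypothalamic GnRH acts on gonadotropes through its receptor Gnrhr, and the genes of the hormones and of the receptor are controlled by factors such as SF1 (Nr5a1), LHX3, PITX1 and GATA2. αT3–1 cells are widely used as gonadotropes that carry the GnRH receptor but make little or no β subunit.

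The values below 1 RPKM are whole multiples of a small step, from which the reads behind each column follow: 20.7 M (M, 1000000) for αT3–1, between 18.7 M and 20.2 M for the other 3 pituitary lines and 14.3 M for NIH3T3. Depth thus differed little between the 4 lines compared. αT3–1 had 11438 genes at 1 RPKM or more, and the others had 10750 to 11028. Where whole reads could be recovered, 95% intervals are given, and they cover counting error only, not differences between cultures. In such bulk RNA, more cells with a transcript and more of it per cell cannot be told apart. With each other line in the place of αT3–1, the same rule called 46 genes higher (0.357%) and 17 lower (0.132%) for αT1–1, 408 (3.17%) and 205 (1.59%) for LβT2, and 86 (0.667%) and 38 (0.295%) for TαT1. These counts share columns with those of αT3–1 and are set side by side only.

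The hormone genes set αT3–1 apart by the level of its α subunit. Cga stood at 603 RPKM in αT3–1 (95% interval 591 to 616), against 9081 in αT1–1, 12968 in LβT2 and 8802 in TαT1. It was the highest of all genes in each of the other 3 lines and ranked 17th in αT3–1, where it was 14.6-fold lower than in the nearest line, TαT1 (14.3 to 14.9). Cga was thus abundant in αT3–1, and far above the 0.102 RPKM of NIH3T3, yet low for a pituitary line. Gnrhr, the receptor for GnRH, went the other way, with 206 RPKM in αT3–1, against 72.3 in LβT2 and a listed value of 0 in αT1–1 and TαT1. Lhb, at 0.285 RPKM or 3 reads in αT3–1, was close to its 0.291 in αT1–1 and 0.208 in TαT1, and only LβT2 had more, with 23.3. Fshb was listed at 0 in all 5 lines. Tshb, the thyrotrope β subunit, had 0.0749 RPKM in αT3–1, against 0.383 in αT1–1, 0.166 in LβT2 and 58.5 in TαT1. Of the 5 gonadotrope markers checked, αT3–1 thus had Cga, Gnrhr and, as given below, Nr5a1, while Lhb and Fshb were at or near 0.

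The promoter of Cga is shown because the low level of this gene sets αT3–1 apart from every other pituitary line. Fitm1, which has a role in lipid droplets and 71.9 RPKM in αT3–1 against at most 0.0588 elsewhere in the pituitary lines, is shown as a promoter of the higher genes with the same motif. Both windows run from 250 bases before to 50 bases after the start of the gene in RefSeq (GRCm38.p6), Cga at chr4:34893529-34893828 and Fitm1 at chr14:55575424-55575723, each on the plus strand, and capitals mark the E-box CAGCTG, a motif read by basic helix-loop-helix factors.
Cga: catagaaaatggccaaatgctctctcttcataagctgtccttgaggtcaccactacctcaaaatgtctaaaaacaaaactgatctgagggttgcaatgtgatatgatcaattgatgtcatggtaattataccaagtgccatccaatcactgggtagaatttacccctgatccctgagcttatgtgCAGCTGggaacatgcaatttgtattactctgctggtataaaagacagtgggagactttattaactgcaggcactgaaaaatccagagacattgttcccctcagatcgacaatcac
Fitm1: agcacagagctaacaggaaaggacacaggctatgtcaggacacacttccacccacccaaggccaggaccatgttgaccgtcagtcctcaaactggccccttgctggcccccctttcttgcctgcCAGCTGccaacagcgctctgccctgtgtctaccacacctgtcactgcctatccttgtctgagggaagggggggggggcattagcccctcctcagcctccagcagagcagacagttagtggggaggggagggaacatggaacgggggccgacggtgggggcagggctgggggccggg
The E-box starts at −65 in Cga and at −126 in Fitm1. It was the only match in either window among 7 motifs searched on both strands, the others being the SF1 site CAAGGTCA, the GATA site AGATAA, the cyclic AMP element TGACGTCA, the LIM homeodomain site TTAATTA, the PITX site TAATCC and the EGR site GCGTGGGCG. The promoter window of Gnrhr, at chr5:86197852-86198151 on the minus strand, held none of the 7. It overlaps only in part with the Gnrhr region that the study assayed. The Cga window holds the whole Cga region assayed, where the study reported binding of LHX3 and PITX1. The lack of a match says nothing about sites outside the window or with other letters. Across the called genes with a promoter in the RefSeq table, the E-box was in 35 of 165 higher genes (21.2%) and 7 of 45 lower genes (15.6%), beside 14.8% of the 10121 promoters of all genes tested. The GATA site was in 8 of 165 higher genes (4.85%) and 5 of 45 lower genes (11.1%), beside 5.81% of all genes tested. A match says only that these letters are in the window.

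Among the transcription factors of the pituitary, αT3–1 had a mixed profile. Of 37 tested members of this list, 8 were higher in αT3–1 than in all 3 other lines and 6 were lower at a gap of 1 (2-fold, a size used for all lists), beside 7.82% and 3.07% of all genes tested. In every list, a gene that reached 1 RPKM in αT3–1 alone could only be highest there, so the minimum favours higher calls. Gata2, a factor of gonadotropes and thyrotropes, had 1.42 RPKM in αT3–1, against 25.9 in αT1–1, 78.8 in LβT2 and 51.7 in TαT1. This is 18.3-fold lower than in the nearest line (14.9 to 22.7) and also below the 2.73 RPKM of NIH3T3. Pitx1, which marks the whole anterior lobe, had 100.4 RPKM in αT3–1, against 260 in αT1–1, 337 in LβT2 and 398 in TαT1. Nr5a1 was high in αT3–1 and LβT2 alone, with 162 RPKM in αT3–1, against 0.687 in αT1–1, 265 in LβT2 and 0.288 in TαT1. Lhx3 was at 24.9 RPKM in αT3–1, against 100.1 in αT1–1, 28.3 in LβT2 and 67.3 in TαT1, and hardly differed from LβT2 (gap −0.18). Foxl2, at 86.8 RPKM in αT3–1 against 47.8 in αT1–1, 46.0 in LβT2 and 17.6 in TαT1, was the highest of the 4 but short of 2-fold (gap 0.85).

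The factors high in αT3–1 include 2 neurogenic basic helix-loop-helix genes. Neurod1 had 45.5 RPKM in αT3–1, against 0.218 in αT1–1, 1.74 in LβT2 and 0 in TαT1, a ratio of 26.1 to the nearest line (20.9 to 33.0). Neurod4 had 24.8 RPKM in αT3–1, against 3.15 in αT1–1, 0.0320 in LβT2 and 0.238 in TαT1. The sine oculis and eyes absent homologs, partners in organ development, differed in direction. Six2 (18.4 RPKM in αT3–1, against 66.0 in αT1–1, 66.8 in LβT2 and 127 in TαT1) was lower than in αT1–1, LβT2 and TαT1, whereas Eya1 (38.0 RPKM, against 11.9 in αT1–1, 6.73 in LβT2 and 0.907 in TαT1) and Six3 (9.42 RPKM, against 1.504 in αT1–1, 0.0874 in LβT2 and 3.76 in TαT1) were higher. Nr4a1, an immediate early orphan receptor gene, had 54.0 RPKM in αT3–1, against 6.51 in αT1–1, 2.49 in LβT2 and 21.8 in TαT1. Egr1, another immediate early gene and a factor of Lhb transcription, had 1.39 RPKM in αT3–1, against 5.08 in αT1–1, 3.87 in LβT2 and 6.67 in TαT1. The gap of Egr1 was −0.62, short of 2-fold, once each line had been centred for base composition and length, that is, once its median difference from the mean of the 4 lines in 20 bins of each property had been taken off.

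The 20 named genes with the largest gap above the other lines were, but for Malat1, near 0 in the other pituitary lines. The first was Acvrl1, whose product is a TGFβ-family type I receptor best known from endothelium, with 171 RPKM in αT3–1, against 0.0136 in αT1–1, 0.340 in LβT2 and 0 in TαT1. Of the 12 genes of the endothelial list only 5 reached 1 RPKM in a pituitary line. Acvrl1 made up most of the 188 RPKM summed over the list in αT3–1. Of the endothelial markers checked there, Pecam1 had 0.0585 RPKM, Tek 0.0312 RPKM, Cdh5 1.16 RPKM and Kdr 15.3 RPKM. Ppp1r14a, an inhibitor of myosin phosphatase, had 224 RPKM in αT3–1, against 1.58 in αT1–1, 0.505 in LβT2 and 0.699 in TαT1. Adcy8, a calcium-stimulated adenylyl cyclase, had 52.9 RPKM in αT3–1, against 0.147 in αT1–1, 0.298 in LβT2 and 0.358 in TαT1. Cyclic AMP and calcium are both messengers of pituitary receptors. Sytl4, whose product granuphilin binds secretory granules, had 32.6 RPKM in αT3–1, against 0.0398 in αT1–1, 0.0576 in LβT2 and 0.0285 in TαT1. Syt6, a synaptotagmin, had 35.6 RPKM in αT3–1, against 0.190 in αT1–1, 0 in LβT2 and 0.144 in TαT1. The orphan receptor gene Gpr149 had 30.7 RPKM in αT3–1 and no more than 0.0159 in any of the other 3.

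Several further genes of this group are known from other tissues. Mybpc1, a sarcomere protein of slow muscle, had 43.6 RPKM in αT3–1, against 0.252 in αT1–1 and 0 in LβT2 and TαT1. Slc38a5, a transporter of neutral amino acids, had 61.4 RPKM in αT3–1, against 0 in αT1–1, 0.0867 in LβT2 and 0.859 in TαT1. Serping1, the C1 inhibitor of complement, had 29.99 RPKM in αT3–1, against 0.326 in αT1–1, 0 in LβT2 and 0.0292 in TαT1. Nap1l5, a gene imprinted in mouse, had 30.3 RPKM in αT3–1 and between 0.0261 and 0.0283 in the other pituitary lines. The chemokine-like gene Fam19a4 (now Tafa4) had 59.1 RPKM in αT3–1, against 0 in αT1–1 and LβT2 and 1.07 in TαT1. The remaining members of the 20, Gdpd2, Renbp, Mrc2, Pdzk1ip1 and Smoc1, had 29.7 to 71.1 RPKM in αT3–1 and at most 1.66 RPKM in another pituitary line. The long noncoding RNA Malat1, which stays in the nucleus, differed from all of these in being well measured everywhere. It had 1243 RPKM in αT3–1, the third highest gene there, against 48.8 in αT1–1, 49.8 in LβT2 and 27.4 in TαT1, a ratio of 24.96 to the nearest line (24.3 to 25.6).

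**Figure D1:**
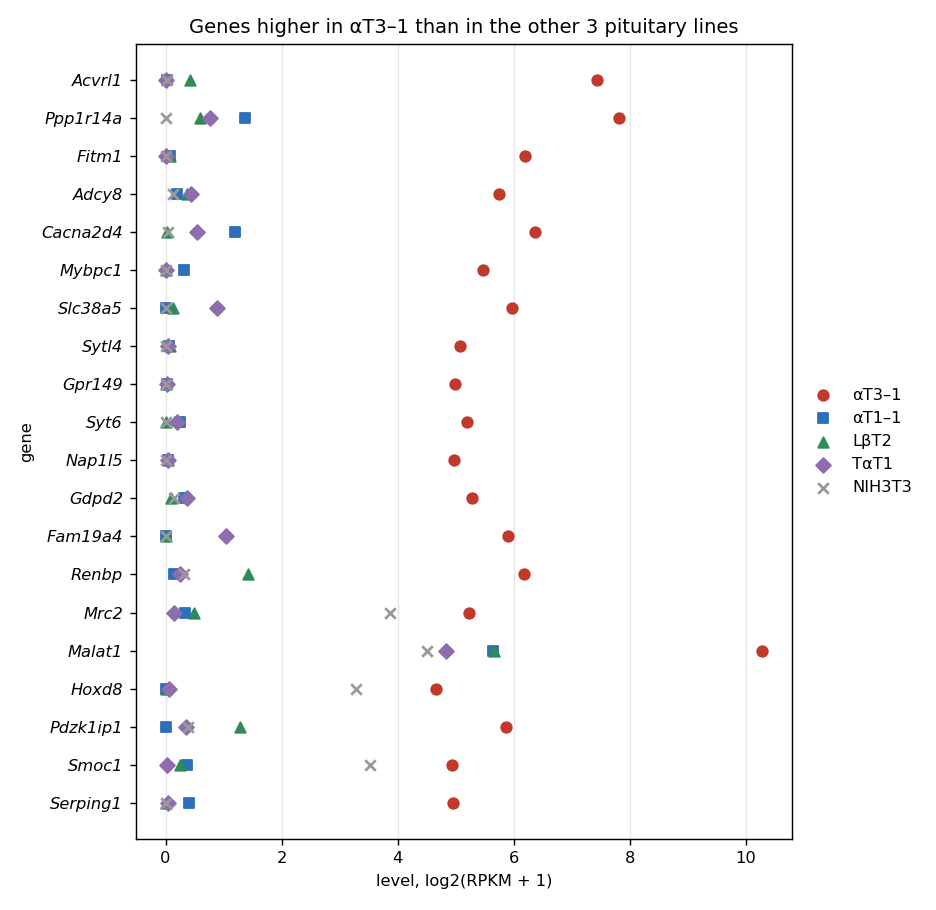
Levels of the 20 named genes with the largest gap above the other pituitary lines, on log2(RPKM + 1), 1 point per line. αT3–1 lies at the right of each row, and NIH3T3 comes near it for Mrc2, Hoxd8 and Smoc1, at 13.7, 8.73 and 10.4 RPKM.

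Of the 221 higher genes, 102 were under 1 RPKM in all 3 other pituitary lines and 13 were listed at 0 in all 3. The median over the 221 was 18.2 RPKM in αT3–1 and 1.27 RPKM in the highest other line. The nearest line was αT1–1 for 98 of them, LβT2 for 63 and TαT1 for 60. More than 20% of the 36-base words (the read length) were shared with transcripts of other genes for 18 of 220 higher genes, Gdpd2 (27.4%) among them, and for 7 of 58 lower genes, so that these levels are less certain. NIH3T3, which the rule did not use, had 1 RPKM or more for 74 of the 221 (33.5%), beside 70.5% of all genes tested. The named genes just inside the size used were Ptpn21, Pcdhb20 and Cep170, with gaps of 2.002, 2.004 and 2.005, and those just outside were Aff4, Abcc2 and Pcdhb3, with gaps of 1.998, 1.997 and 1.996.

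Hox genes encode the homeodomain factors of the body axis and lie in 4 clusters. Of the 39 in the table, only 13 reached 1 RPKM in a pituitary line and were tested. All 13 were at 1 RPKM or more in αT3–1, against 5 in αT1–1, 0 in LβT2 and 1 in TαT1. Most of them thus entered only through αT3–1, so that their share of calls was largely set by the minimum and is not read as a result. The 7 that were higher in αT3–1 than in all 3 other lines at 2-fold, 6 of them at 4-fold, belong to the Hoxc and Hoxd clusters. Hoxd8 had 24.2 RPKM in αT3–1, against 0 in αT1–1 and LβT2 and 0.0373 in TαT1. Hoxd13 (5.45 RPKM), Hoxd3 (4.50 RPKM) and Hoxd11 (1.15 RPKM) were listed at 0 in all 3 others, and Hoxd4, at 3.78 RPKM in αT3–1, had 0.0386 in αT1–1 and 0 in LβT2 and TαT1. From the other cluster, Hoxc10 had 8.96 RPKM in αT3–1, against 0.0296 in αT1–1, 0 in LβT2 and 0.318 in TαT1, and Hoxc9 had 5.60 RPKM, against 0 in αT1–1, 0 in LβT2 and 0.0309 in TαT1. Hoxa5 and Hoxa7 were not among the 7. Hoxa5 had 2.94 RPKM in αT3–1, against 7.11 in αT1–1, 0 in LβT2 and 0.0281 in TαT1, and Hoxa7 had 5.92 RPKM in αT3–1, against 4.84 in αT1–1, 0.0274 in LβT2 and 0.0543 in TαT1. Of the 36-base words of the annotated Hoxd3 transcripts, 86.8% also occur in transcripts of other genes, as do 43.1% of those of Hoxd4 and 21.6% of those of Hoxd11, so these levels are uncertain.

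Of 65 receptors for transmitters and peptides in the table, 29 were tested, 15 of them at 1 RPKM or more in αT3–1. At 2-fold, 5 of the 29 were higher in αT3–1 (17.2%, beside 7.82% of all genes tested). Of these, Oxtr, Ptger4 and Tacr1 were tested through αT3–1 alone. The share is thus partly set by the minimum and is not read as a result. The 1 that was lower (3.45%) is close to the 3.07% of all genes. Adcyap1r1, the PAC1 receptor for PACAP, a hypothalamic peptide that acts on gonadotropes, had 32.3 RPKM in αT3–1, against 0 in αT1–1, 5.38 in LβT2 and 0.0170 in TαT1. Oxtr, the oxytocin receptor, had 9.48 RPKM in αT3–1, against 0.790 in αT1–1, 0.0235 in LβT2 and 0.337 in TαT1. Ptger4 and Tacr1, the receptors EP4 for prostaglandin E and NK1 for substance P, reached only 3.87 and 2.01 RPKM in αT3–1 and at most 0.187 RPKM in the other pituitary lines. Crhr1, the receptor for CRH, was the lower member, with 0.199 RPKM in αT3–1 against 1.40 in αT1–1, 7.73 in LβT2 and 5.16 in TαT1, and fell short of 2-fold after centring for base composition and length (gap −0.73). Within the peptide genes, Kiss1, which encodes the kisspeptin peptides that stimulate GnRH neurons, had 126 RPKM in αT3–1, against 34.6 in αT1–1, 0.108 in LβT2 and 3.85 in TαT1. Every 36-base word of Kiss1 also occurs in another annotated transcript, so its level is uncertain. Gnrh1, the gene of GnRH itself, had 3.797 RPKM in αT3–1, against 0.0947 in αT1–1, 0 in LβT2 and 0.712 in TαT1.

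Of 24 tested subunits of voltage-gated calcium and sodium channels, which shape the firing of pituitary cells, 6 were higher in αT3–1 than in all 3 other lines and 1 was lower, beside 7.82% and 3.07% of all genes tested, with a median difference of 0.78 to the middle (the median) of the 3 lines, beside −0.0022 for all genes tested. Cacna2d4, an auxiliary calcium channel subunit, had 81.6 RPKM in αT3–1, against 1.29 in αT1–1, 0.0185 in LβT2 and 0.457 in TαT1. Cacna1h, a T-type channel that opens at low voltage, had 69.2 RPKM in αT3–1, against 1.93 in αT1–1, 24.9 in LβT2 and 0.473 in TαT1. Cacna1a, the P/Q-type channel, had 26.1 RPKM in αT3–1, against 4.19 in αT1–1, 4.70 in LβT2 and 7.52 in TαT1. Cacna1f had 7.19 RPKM in αT3–1 and at most 0.846 in the other pituitary lines. It was thus tested through αT3–1 alone, and the minimum favours its higher call. The sodium channel gene Scn3a had 14.0 RPKM in αT3–1, against 0.264 in αT1–1, 3.21 in LβT2 and 0.344 in TαT1. Cacng4 was the lower member, at 14.9 RPKM in αT3–1 against 31.5 in αT1–1, 32.9 in LβT2 and 45.1 in TαT1. After centring for base composition and length, 4 members of the list remained higher and none lower, Scn3a and Cacna2d1 being the ones that no longer reached 2-fold. Among 34 tested potassium channel genes, 5 were higher (14.7%) and 3 lower (8.82%), beside the same 7.82% and 3.07%. Of the higher ones, Kcnq1 was tested through αT3–1 alone, and Kcna3, Kcnc4, Kcnh6 and Kcnn2 fell short of 2-fold with a pseudocount of 5. The share of higher calls is thus partly set by the minimum and is not read as a result. Kcnq1, a slowly activating channel, had 7.58 RPKM in αT3–1, against at most 0.112 in the other pituitary lines, whereas the leak channel genes Kcnk3 and Kcnk9 had 3.10 and 0.120 RPKM in αT3–1, against at least 18.6 and 2.39 in each other pituitary line.

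Receptors for sex steroids and the TGFβ family differed gene by gene. Esr1, the estrogen receptor α, had 39.1 RPKM in αT3–1, against 5.93 in αT1–1, 0.0248 in LβT2 and 4.24 in TαT1, a ratio of 6.60 to the nearest line (6.02 to 7.26). Rxra, the retinoid X receptor that pairs with many nuclear receptors, was low, at 1.65 RPKM in αT3–1 against 22.5 in αT1–1, 40.9 in LβT2 and 26.5 in TαT1. Nr0b2, a nuclear receptor without a DNA-binding domain, had 3.42 RPKM in αT3–1 and at most 0.0475 elsewhere. In the activin, inhibin, BMP and TGFβ list, 5 of 34 tested genes were higher (14.7%) and 2 lower (5.88%), beside 7.82% and 3.07% of all genes tested. Of the higher ones, Acvrl1, Bmpr1b and Bmp4 were tested through αT3–1 alone. The share of higher calls is thus partly set by the minimum and is not read as a result. Besides Acvrl1, the higher ones were the receptor genes Tgfbr1 (14.7 RPKM in αT3–1, against 1.09 in αT1–1, 4.68 in LβT2 and 1.93 in TαT1), Bmpr2 (9.70 RPKM, against 1.54 in αT1–1, 4.20 in LβT2 and 2.10 in TαT1) and Bmpr1b (1.73 RPKM, against 0.204 in αT1–1, 0.0904 in LβT2 and 0 in TαT1), and the ligand gene Bmp4 (2.13 RPKM, against 0.0777 in αT1–1, 0 in LβT2 and 0 in TαT1). The intracellular mediator Smad3 was lower, at 5.38 RPKM in αT3–1 against 16.6 in αT1–1, 67.0 in LβT2 and 18.9 in TαT1, as was the inhibitory Smad6, at 0.0651 RPKM against 5.09 in αT1–1, 3.65 in LβT2 and 6.38 in TαT1. Tgfbr1, Bmpr2 and Bmpr1b fell short of 2-fold after centring for base composition and length, with gaps of 0.63, 0.34 and 0.17.

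The 58 lower genes were mostly genes that all 3 other pituitary lines expressed well. Their median in the lowest other line was 15.8 RPKM, against 1.21 RPKM in αT3–1, and 6 of them were listed at 0 in αT3–1. Igfbp5 headed the group, with 0.0578 RPKM in αT3–1, against 130 in αT1–1, 126 in LβT2 and 68.0 in TαT1. Its neighbour on chromosome 1, Igfbp2, had 0.222 RPKM in αT3–1, against 21.9 in αT1–1, 1507 in LβT2 and 19.4 in TαT1. Both encode binding proteins for insulin-like growth factors. Irs1, a substrate of the IGF and insulin receptors, was higher instead, at 13.7 RPKM in αT3–1 against 2.29 in αT1–1, 0.620 in LβT2 and 3.798 in TαT1, though 30.6% of its 36-base words are shared with other genes. The transcription factor genes among the 20 named, besides Gata2 and Rxra, included Csda (now Ybx3), a cold-shock domain protein, with 1.53 RPKM in αT3–1 against 63.0 in αT1–1, 67.2 in LβT2 and 89.9 in TαT1, and Hlf, of the PAR leucine zipper family, with 0.137 RPKM against 29.5 in αT1–1, 16.0 in LβT2 and 14.1 in TαT1.

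Sparc, a matricellular glycoprotein, had 0.484 RPKM in αT3–1, against 45.0 in αT1–1, 18.8 in LβT2 and 60.5 in TαT1. Sdc4, a heparan sulfate proteoglycan, had 1.14 RPKM in αT3–1, against 81.9 in αT1–1, 181 in LβT2 and 24.5 in TαT1. Bcam, a laminin receptor, had 13.1 RPKM in αT3–1, against 128.5 in αT1–1, 119 in LβT2 and 94.0 in TαT1. The secreted factors Cxcl14, a chemokine, and Lgals3bp had 0.265 and 2.85 RPKM in αT3–1, and at least 11.4 and 26.5 RPKM in each other line. Wls, the carrier that takes Wnt proteins to the cell surface, was listed at 0 in αT3–1, against 10.2 in αT1–1, 20.4 in LβT2 and 10.4 in TαT1, at least 182-fold lower with αT3–1 set to a floor of 3 reads. Of the vesicle genes, Syt9, a calcium sensor of exocytosis, had 1.46 RPKM in αT3–1, against 23.1 in αT1–1, 38.4 in LβT2 and 20.3 in TαT1, the opposite of Syt6. Chga, the chromogranin A of secretory granules, lay just outside the 4-fold size (gap −1.98), with 102 RPKM in αT3–1 against 488 in αT1–1, 1280 in LβT2 and 403 in TαT1. Sdf2l1, part of an ER chaperone complex, had 17.6 RPKM in αT3–1, against 146 in αT1–1, 160 in LβT2 and 125 in TαT1. Cotl1, Chst1, Ifi27l1, Bckdhb and Sardh completed the 20, with 1.37 to 11.6 RPKM in αT3–1 and no less than 13.2 RPKM in another line.

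**Figure D2:**
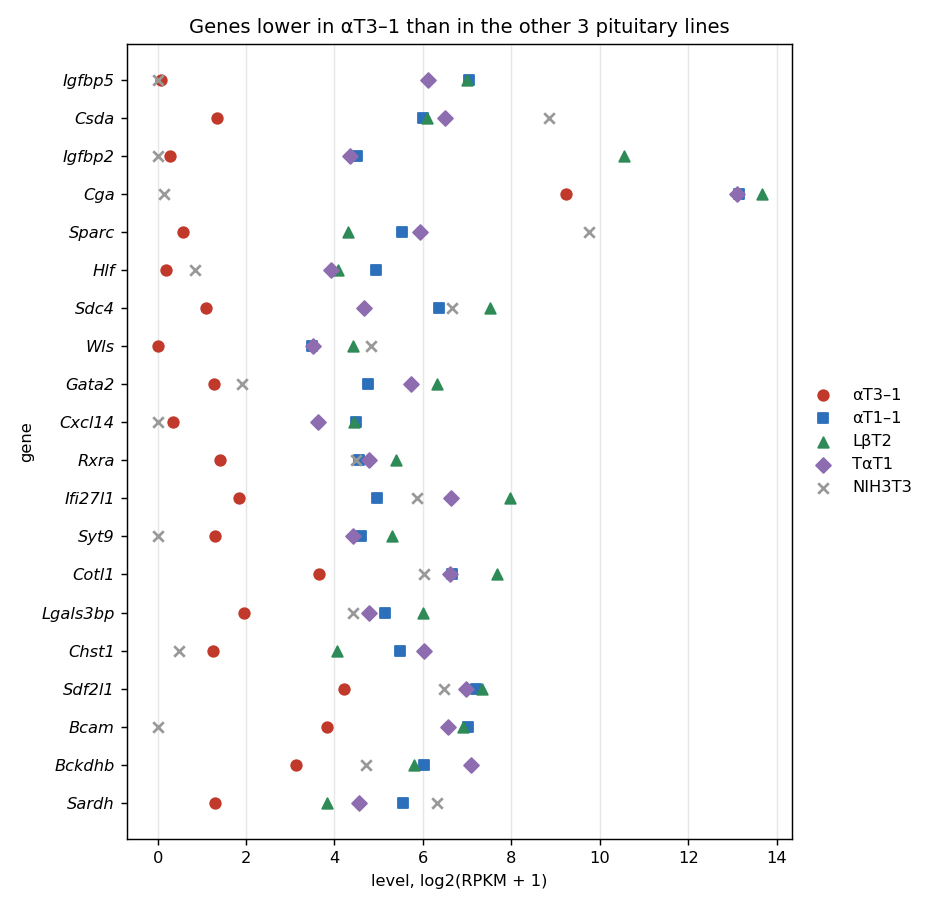
Levels of the 20 named genes with the largest gap below the other pituitary lines, on log2(RPKM + 1), 1 point per line. αT3–1 is the leftmost of the 4 pituitary lines in each row, with Cga the one gene that stays high in it at 603 RPKM, and NIH3T3 varies from gene to gene.

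NIH3T3 had 1 RPKM or more for 35 of the 58 lower genes (60.3%), beside 70.5% of all genes tested. The nearest line was TαT1 for 25 of the 58, αT1–1 for 21 and LβT2 for 12. The named genes just inside the size used were Cdc45, Serpinf1 and Rnd1, with gaps of −2.04, −2.05 and −2.11, and Zfp92, Chga and Dnajb11 lay just outside, at −1.98, −1.98 and −1.96.

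Genes of DNA replication and mitosis were low in αT3–1 as a group by small steps. All 42 on the list were tested, 10 were lower in αT3–1 than in all 3 other lines at 2-fold (23.8%, beside 3.07% of all genes tested), none was higher, and αT3–1 was the lowest of the 4 for 31 of them, beside 28.2% of all genes tested. The median difference to the middle line was −0.97. Mybl2, a cell cycle transcription factor with 24.9% of its 36-base words shared with other genes, had 7.43 RPKM in αT3–1, against 31.2 in αT1–1, 39.6 in LβT2 and 30.7 in TαT1. Mcm5, a subunit of the replicative helicase, had 96.0 RPKM in αT3–1, against 316 in αT1–1, 215 in LβT2 and 255 in TαT1. Aurka, a mitotic kinase, had 37.6 RPKM in αT3–1, against 135 in αT1–1, 118 in LβT2 and 109 in TαT1, and thymidine kinase Tk1 had 19.1 RPKM, against 62.0 in αT1–1, 109 in LβT2 and 68.4 in TαT1. The list was not uniform. Mki67, the Ki-67 proliferation marker, was highest in αT3–1, at 37.5 RPKM against 14.4 in αT1–1, 25.4 in LβT2 and 9.44 in TαT1, as was the kinesin gene Cenpe, at 5.44 RPKM against 0.658 in αT1–1, 3.01 in LβT2 and 0.727 in TαT1. After centring for base composition and length, 8 of the 42 were lower at 2-fold, with a median difference of −0.89 and with Mcm5 just short at −0.97, and scaling all lines to Actb took Aurka, Mcm5 and Cenpa, among others, to under 2-fold. Subunits of oxidative phosphorylation leaned the same way but less firmly, with 4 of 42 lower (9.52%), none higher and αT3–1 the lowest for 29. Their median difference to the middle line was −0.62. Cox8a, of cytochrome oxidase, had 178 RPKM in αT3–1, against 460 in αT1–1, 828 in LβT2 and 919 in TαT1. After the centring 2 of these 42 were lower, with Cox8a just short at −0.98, and the median difference was −0.29. Quantile normalization took Cox8a, Ndufa1, Ndufa9 and Ndufb7 to under 2-fold, and scaling to Actb did so for Ndufa1, Ndufa9 and Ndufb7.

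Of 41 tested histone methylation enzymes, which write and erase methyl marks on histones, 5 were higher (12.2%) and none was lower, beside 7.82% and 3.07% of all genes tested. After centring for base composition and length 3 of the 41 were higher, beside 753 of all 12884 genes tested after the same centring, so the 2 shares differed little. Setd2, the H3K36 methyltransferase, had 15.8 RPKM in αT3–1, against 3.45 in αT1–1, 2.86 in LβT2 and 2.43 in TαT1. Setd7 had 26.1 RPKM in αT3–1, against 8.24 in αT1–1, 4.46 in LβT2 and 6.63 in TαT1, and Mll5 had 24.7 RPKM, against 8.18 in αT1–1, 4.60 in LβT2 and 4.73 in TαT1. Ezh2, which places H3K27 methylation, had 58.5 RPKM in αT3–1, against 26.4 in αT1–1, 18.5 in LβT2 and 21.6 in TαT1, but with Kdm5a was no longer 2-fold apart after centring for base composition and length (gaps 0.68 and 0.35).

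Markers of other cells were checked as well. In αT3–1 the hormone genes Prl, Gh and Pomc, the pituitary factor gene Pou1f1 and the blood markers Ptprc and Hba-a1 were all listed at 0. Trhr, Tbx19 and Csf1r were listed at 0 there as well. Low levels were seen for Cd68 (0.959 RPKM), Dio2 (0.923 RPKM), Ghrhr (0.393 RPKM) and Pax7 (0.170 RPKM). Ptprc and Hba-a1 were at 0 in all 5 lines, so their values do not set αT3–1 apart. Of 24 fibroblast and matrix genes, 13 were tested. Of these, 2 were higher (15.4%) and 1 was lower (7.69%), beside 7.82% and 3.07% of all genes tested. The higher 2 reached 1 RPKM in no other pituitary line, so the minimum favours their share and it is not read as a result. The summed level of the list was 63.9 RPKM in αT3–1, against 63.6 to 285 RPKM in the other pituitary lines and 16490 RPKM in NIH3T3. Twist1 was one of the higher 2, with 12.4 RPKM in αT3–1 against 0.940 in αT1–1, 0 in LβT2 and 0.456 in TαT1, and Col1a2 the other, with 2.16 RPKM against at most 0.0929 in the other pituitary lines. Kdr, an endothelial receptor gene, had 15.3 RPKM in αT3–1, against 65.0 in αT1–1, 0 in LβT2 and 20.9 in TαT1. None of the 15 reference genes was apart from the other 3 lines in αT3–1, and Actb had 584 RPKM in αT3–1, against 723 in αT1–1, 579 in LβT2 and 875 in TαT1, with 28.9% of its 36-base words shared with other genes. The Y chromosome genes Eif2s3y and Ddx3y had 3.83 and 1.04 RPKM in αT3–1 and were listed at 0 in the other 4 lines.

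**Figure D3:**
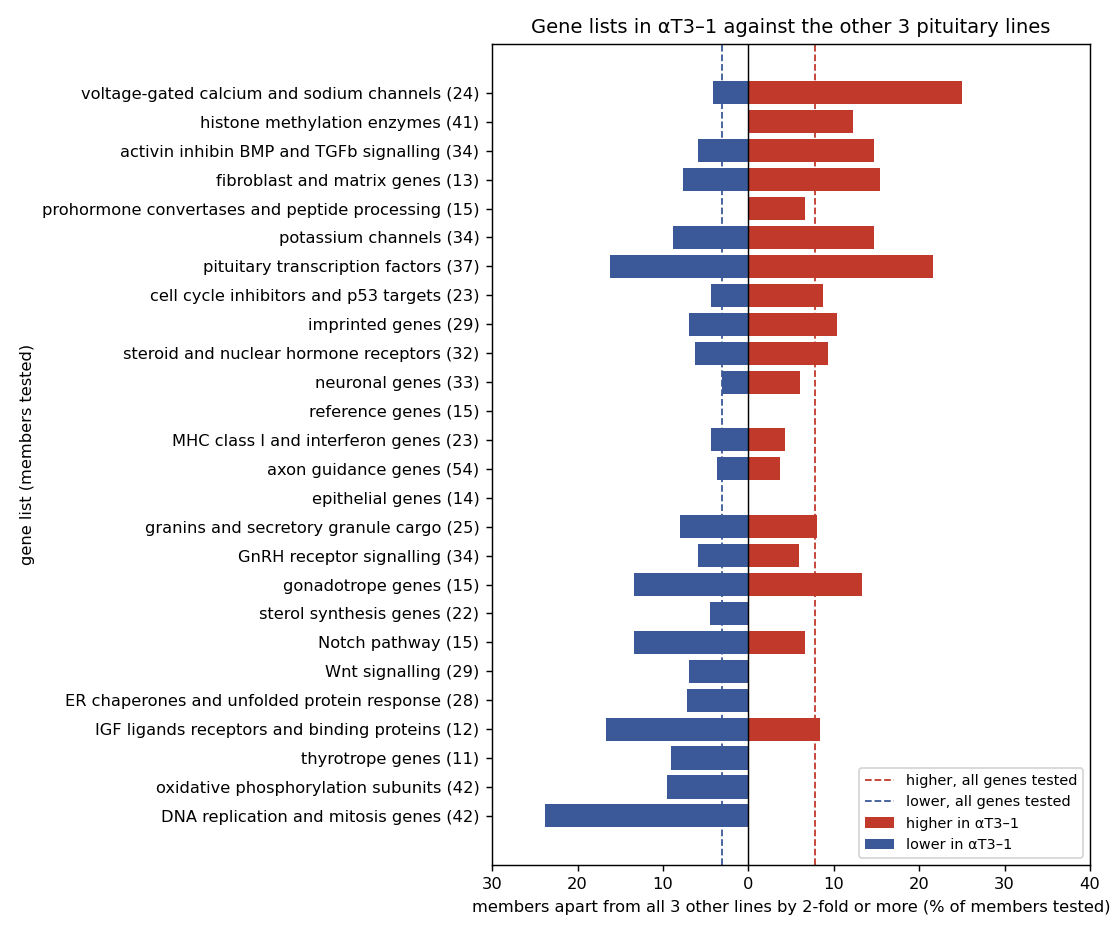
Share of the tested members of each gene list with at least 10 members tested, and at least 50% of those in the table, that was higher (right) or lower (left) in αT3–1 than in all 3 other pituitary lines by 2-fold or more, with dashed lines at the 7.82% and 3.07% of all genes tested. Of the lists shown, the calcium and sodium channels, at 6 of 24, reach farthest to the right and DNA replication and mitosis genes, at 10 of 42, farthest to the left.

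The calls moved with the base composition and the length of the genes. The genes were put in 5 equal bins of G + C content of the exons. In the bin with the lowest (29.6 to 44.8%), 16.8% were higher in αT3–1 than in all 3 other lines by 2-fold and 0.510% were lower. In the bin with the highest (56.3 to 74.8%), 4.51% were higher and 4.75% lower. The median difference in the lowest bin was 0.71 to αT1–1, 0.53 to LβT2 and 0.92 to TαT1, so that it was seen against each line. By length, 4.70% of genes under 1000 bases and 15.02% of those of 5000 bases or more were higher, and 5.20% and 1.61% were lower. Centring each line for both properties, chosen after these values had been seen, left 202 genes higher and 50 lower at 4-fold, of which 160 and 38 were among the 221 and 58. The 20 named genes of each direction were all still called. Ppp1r14a, Cacna2d4, Gdpd2, Mrc2, Csda and Ifi27l1 had no recovered length, so these were centred for base composition alone. The part of base composition and length in the other calls was not tested further.

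**Figure D4:**
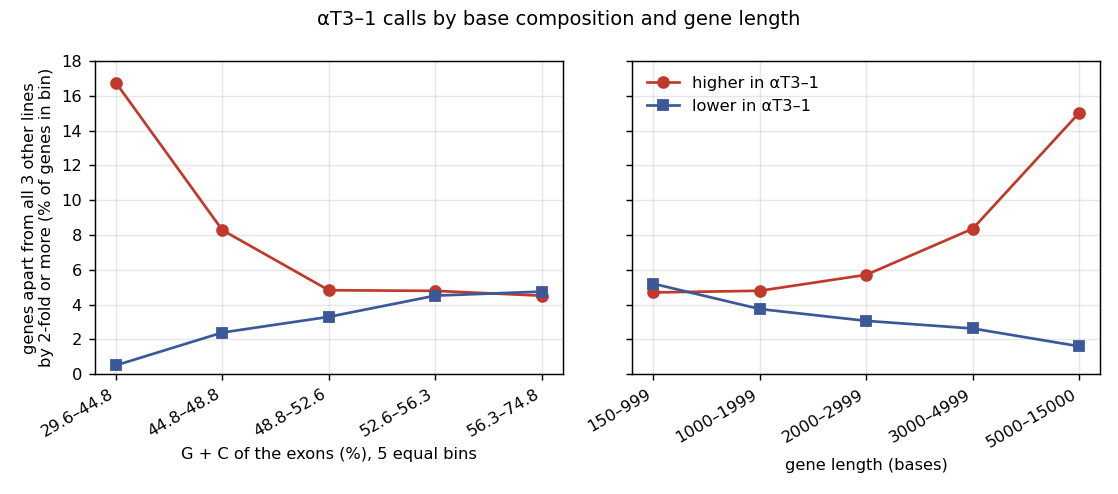
Percent of genes higher or lower in αT3–1 than in all 3 other pituitary lines by 2-fold or more, by 5 equal bins of exon G + C content (left panel) and by gene length (right panel). The higher share falls with G + C, 16.8% in the first bin and 4.51% in the last, and grows with length to 15.02%.

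The higher genes were spread unevenly over the chromosomes. On chromosome 19, 19 of 452 genes tested were higher at 4-fold (4.20%) and none was lower, beside 1.72% and 0.45% of all genes tested. At 2-fold, 72 were higher (15.9%) and 13 lower (2.88%), beside 7.82% and 3.07%. The median difference of all its genes to the middle of the 3 lines was 0.57. After centring for base composition and length it was 0.67, with 0.68 against αT1–1, 0.58 against LβT2 and 0.68 against TαT1. The chromosome was not high throughout. A stretch of 50 consecutive tested genes, 1110014N23Rik to Snord22, held 11 of the 13 lower genes and had an uncentred median of −0.68. Chromosome 3 had a median difference of 0.56 over 594 genes, or 0.39 after centring. Its centred median was 0.52 against LβT2, 0.46 against TαT1 and 0.07 against αT1–1. The small median against αT1–1 takes in unlike parts of the chromosome. Over stretches of 50 consecutive tested genes, the uncentred median against αT1–1 ran from −1.25 (Flad1 to Pogz) to 1.26 (from Prpf38b on). Over the other autosomes and the X chromosome, the centred medians ran from −0.35 on chromosome 16 to 0.18 on chromosome 10. Members that lay next to each other, with no more than 2 other tested genes between them, made 28 runs of higher genes holding 59 members and 3 runs of lower genes holding 6. How many runs an even spread of the members would give was not worked out. The longest higher run was Hoxd13, Hoxd8, Hoxd3 and Hoxd4 on chromosome 2, and the lower runs included Igfbp2 with Igfbp5. These Hoxd genes were tested through αT3–1 alone, so the minimum favours their run and it is not read as a result.

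**Figure D5:**
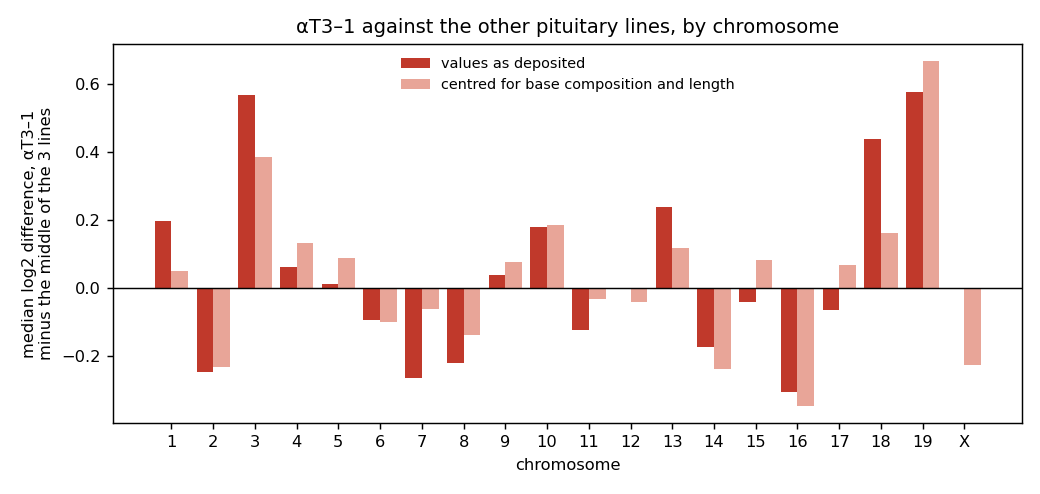
Median difference on log2(RPKM + 1) between αT3–1 and the middle of the other 3 pituitary lines over the tested genes of each autosome and of the X chromosome, as deposited and after centring for base composition and length. Of these, chromosome 19 stands highest in both, at 0.57 and 0.67.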

How the data were processed

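RNA of 5 mouse cell lines was sequenced, from libraries that select polyadenylated RNA without marking strand (TruSeq v2, 36 bp single-end reads). The authors aligned the reads with CASAVA and deposited RPKM, already divided by gene length and library reads, in 1 column per line. The study states 2 libraries per line; the sources used here do not give how they were combined, nor the build and annotation.

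Of 21476 entries, 25 held a date in place of a name and were left out, and for 9 repeated symbols the entry with the higher mean was kept. Values under 1 RPKM were whole multiples of a step (tolerance 0.05), which gave the reads behind each column, and the shortest length from 150 to 15000 bases giving whole reads in every column gave reads for 15415 of 17489 genes above 0 (88.1%). For a gene above 0 in a single column that length is loosely bound, and its reads are not printed. Intervals are exact Poisson, and exact binomial for ratios, at 95%, for counting error only; the floor is 3 reads.

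Genes were compared on log2(RPKM + 1) at 1 RPKM or more in any pituitary line and called at a gap of 2, or 1 for members of 35 lists. Named are the genes of the study, the 20 largest gaps per direction at 10 RPKM or more without unnamed, ribosomal and small RNA genes, up to 6 members of a list past a gap of 1, and the 3 genes just inside and outside the size. Hoxa5, Hoxa7, Mki67, Cenpe and the cell markers were named after their values were seen, and the minimum of 50% tested for plotted lists was set then too. The members and lists were chosen with earlier results of these data known. Base composition is that of the exons in GENCODE M21 (GRCm38), promoters and places are from RefSeq (GRCm38.p6), where 12781 tested symbols matched. Centring took from each column its median difference from the mean of the 4 lines in 20 bins. For length it covered only the 11176 of 12884 tested genes with a recovered length. The steps were tested on simulated data. Python 3.11.15, NumPy 2.4.6, pandas 2.3.3, SciPy 1.17.1 and matplotlib 3.10.9 were used. The DNaseI and chromatin data were not analysed here.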

Additional observations from a re-analysis of the deposited data

How the results depend on the processing

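No paired analysis was possible because there is 1 column per line. The 221 higher and 58 lower genes became 464 and 144 with a pseudocount of 0.1, 74 and 16 with a pseudocount of 5, 1007 and 395 at a gap of 1, and 76 and 17 at a gap of 3. Compared without αT1–1 they were 338 and 105, without LβT2 435 and 159, and without TαT1 302 and 99. With NIH3T3 compared as well, 181 were higher and 22 lower. Where the counting interval of the ratio had to lie past 4-fold, 321 were higher and 92 lower. Median-of-ratios scaling gave 220 and 60, quantile normalization 199 and 78, and scaling to Actb 296 and 39, the last with a shift of the median of all genes to 0.28. The other minimums, the repeated symbols and the 3 centrings (added after seeing the data) kept both counts within 1.5 times. Of the 20 named lower genes, 14 stayed past 4-fold with a pseudocount of 5, without Chst1, Cxcl14, Hlf, Sardh, Syt9 and Wls, and all 40 named genes did under the other alternatives run for single genes. Over 146 genes, these and the list members at 2-fold, no gap changed sign, and 57 fell short of their size with a pseudocount of 5, 38 after centring for base composition and length, 23 with quantile normalization, 19 with scaling to Actb and 4 with median-of-ratios scaling. With 1 column per line, differences between cultures set a limit that depth does not.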

Other observations

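Other genes among the 221 and 58 were chosen after their values were seen. Of hormone receptors, Lhcgr, the receptor for LH and chorionic gonadotropin, had 4.47 RPKM in αT3–1 and was listed at 0 in the other 4 lines. Prokr2, a prokineticin receptor, had 4.95 RPKM in αT3–1, against 0.174 in αT1–1, 0 in LβT2 and 0.187 in TαT1, and Rxfp1, the relaxin receptor, had 14.0 RPKM, against 0.0868 in αT1–1, 0 in LβT2 and 2.14 in TαT1. Socs2, an inhibitor of cytokine and growth hormone signaling, had 43.6 RPKM in αT3–1, against 2.20 in αT1–1, 0.226 in LβT2 and 2.26 in TαT1, with 21.6% of its 36-base words shared with transcripts of other genes. Pcp4, a calmodulin-binding peptide, had 640 RPKM in αT3–1, against 34.8 in αT1–1, 0.167 in LβT2 and 43.9 in TαT1, and 34.7% of its 36-base words occur in transcripts of other genes. Hif1a, the oxygen-regulated transcription factor, had 66.8 RPKM in αT3–1, against 15.6 in αT1–1, 8.68 in LβT2 and 8.85 in TαT1.

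In the lower direction, 2 cytokine receptor genes that NIH3T3 also expressed were listed at 0 in αT3–1. Tnfrsf1a, the main receptor for TNF, had 77.3 RPKM in αT1–1, 14.1 in LβT2 and 7.36 in TαT1, and Ifngr1, of the interferon γ receptor, had 11.1 in αT1–1, 7.86 in LβT2 and 3.46 in TαT1. Dbp, a clock-controlled factor of the same family as Hlf, had 15.8 RPKM in αT3–1, against 75.4 in αT1–1, 94.1 in LβT2 and 77.1 in TαT1, with 28.1% of such words shared. Cst3, the secreted protease inhibitor cystatin C, had 223 RPKM in αT3–1, against 1038 in αT1–1, 1531 in LβT2 and 964 in TαT1.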
